A study of Mus musculus with 23 samples.

Results

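The livers described here were the 9 pre-metastatic livers of the series, and the groups were chosen by the transcript level of *Dbp*, a transcription factor of the circadian clock output. A liver was called late-phase when its *Dbp* level was 20 RPKM or more (RPKM is the read count of a gene scaled to gene length and library size) and early-phase when it was below 20 RPKM. This gave 4 late-phase livers, from mice M1, M2, M10 and M12, and 5 early-phase livers, from mice M4, M5, M6, M7 and M8, of 23 RNA-seq samples in all. The words late and early name the side of this split and are not recorded times, since the hour at which each liver was taken was not given in the sources used here.

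Pre-metastatic livers came from male BALB/c mice whose cecal wall had been injected with CT26 cells, a mouse colon carcinoma line, and the primary tumors of the same 9 mice were sequenced too. The 5 control livers came from sham-operated male BALB/c mice without tumors that received medium in place of cells. The mice were 4 to 6 weeks old when they entered the experiment, and tissues were taken 3 weeks after the injection. Late-phase and early-phase livers therefore shared strain, sex, tumor line and treatment as far as the labels and methods state them, and no transgene was used.

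The circadian clock of a cell is a feedback loop in which the activators Arntl (BMAL1), Clock and Npas2 switch on the *Per*, *Cry* and *Nr1d* repressors through E-box sequences, and those repressors then switch the activators off. A second arm runs through Dbp, Tef and Hlf, PAR bZIP factors that bind D-box sequences, with Nfil3 as their opponent on the same sites. In mouse liver, a large set of metabolic genes follows this loop over the day, and feeding, body temperature and glucocorticoids can shift it.

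*Dbp* chose the livers and is given only as the value behind the split. It stood at 84.1, 81.8, 73.1 and 30.9 RPKM in the late-phase livers M1, M2, M10 and M12. It stood at 0.631, 7.63, 3.99, 6.29 and 0.371 RPKM in the early-phase livers M4, M5, M6, M7 and M8. The liver just inside the threshold was M12 at 30.9 RPKM and the liver just outside it was M5 at 7.63 RPKM, so no liver lay near 20 RPKM.

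Libraries of both phases were deep and overlapped in quality measures. Total gene counts ran from 44587556 to 64345098 in the late-phase and from 44896382 to 79773163 in the early-phase livers, and the 10 most abundant genes took 15.4 to 24.7% and 15.0 to 27.9% of them. All 8 hepatocyte markers were measured, and their summed level of 35176 to 57805 RPKM in late-phase livers overlapped that of 29551 to 64511 RPKM in early-phase livers. Of 9 pancreas and gut markers, *Cela3b* and *Amy2a5* were listed at 0 in all 9 livers, and the summed level of the list ran from 7.84 to 17.9 RPKM in the late phase and from 5.58 to 40.3 RPKM in the early phase, beside 6.65 to 8.53 RPKM in control livers, with M4, M8 and M5 highest. No pair of livers agreed within counting noise: even the most alike, M4 and M8, gave a chi-square over degrees of freedom of 77.1, so each liver counted as 1 sample.

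Besides *Dbp*, 17 clock genes are described liver by liver with no p-value for the livers, because they are under the same control as the gene that set the split, although they stayed in the fit across all genes. Of the activator-side genes described here, *Arntl*, *Clock* and *Npas2* were lower in every late-phase liver than in any early-phase liver and *Rora* overlapped. Of the 10 repressor-side genes, *Per2*, *Per3*, *Cry2*, *Nr1d2* and *Ciart* were higher in every late-phase liver, and none was lower in all of them. *Tef* and *Hlf*, of the 3 bZIP genes, were higher in every late-phase liver. Over all 16699 genes tested, 2.51% were higher and 2.72% lower without overlap between the phases, figures set here beside the clock genes from which nothing is read, since the split was made on one of them.

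*Arntl*, the activator subunit on which the loop depends, stood at 0.163, 0.106, 0.126 and 0.193 RPKM in the late-phase livers M1, M2, M10 and M12. In the early-phase livers M4, M5, M6, M7 and M8 it stood at 4.12, 2.39, 1.75, 1.37 and 3.70 RPKM. The early-phase level was 17.5-fold the late-phase level (log2 difference, late minus early, −4.13 ± 0.39 SE, n = 4 and 5), and within the early phase M4 and M8 held the highest values. *Npas2*, an alternative partner of Arntl, was at 0 RPKM in M1 and M10, 0.0150 in M2 and 0.0208 in M12, at most 6 counts, so no fold is given. It reached 1.87, 0.789, 0.357, 0.123 and 1.66 RPKM in M4, M5, M6, M7 and M8, again with M4 and M8 on top. *Clock*, the usual partner of Arntl, ranged from 1.48 to 2.55 RPKM in late-phase and from 4.22 to 6.27 RPKM in early-phase livers, a smaller separation of 2.73-fold.

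*Rora*, a nuclear receptor that competes with the Nr1d repressors, overlapped between the phases, at 2.35 to 4.09 against 1.76 to 3.23 RPKM.

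Among the repressors, *Ciart*, which blocks the Clock and Arntl pair, showed the widest separation. It stood at 4.56, 3.79, 5.5 and 2.06 RPKM in M1, M2, M10 and M12, and at 0.0138, 0.0896, 0.258, 0.278 and 0.0511 RPKM in M4, M5, M6, M7 and M8. That was a 26.7-fold higher late-phase level (log2 4.74 ± 0.65 SE), with M4 and M8 lowest. *Per3* stood at 3.75, 4.56, 3.96 and 2.48 RPKM in the late-phase livers and at 0.0396, 0.425, 0.214, 0.678 and 0.0203 RPKM in the early-phase livers in the same mouse order. *Per3* was thus 13.1-fold higher in the late phase (log2 3.71 ± 0.77 SE), and its lowest late-phase value was again in M12. *Per2* separated less, at 5.40, 5.91, 7.21 and 9.14 RPKM against 0.764, 3.32, 2.85, 4.12 and 1.10 RPKM, and here M12 was the highest late-phase liver. *Per1* overlapped because M2, at 2.60 RPKM, lay below the early-phase liver M7, at 4.41 RPKM.

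*Cry2* stood at 7.71 to 11.8 RPKM in late-phase and 3.69 to 5.27 RPKM in early-phase livers, whereas *Cry1*, whose peak comes later in the cycle, overlapped fully. *Cry1* was at 1.75, 1.84, 3.07 and 4.37 RPKM in M1, M2, M10 and M12 and at 4.22, 2.64, 1.51, 1.87 and 4.53 RPKM in M4, M5, M6, M7 and M8. *Cry1* therefore differed within each phase more than between them: M12, M4 and M8 were the 3 highest livers of the 9. *Nr1d1*, which silences *Arntl*, also overlapped, at 21.4, 27.5, 9.74 and 5.28 RPKM in the late-phase livers and at 4.21, 17.2, 10.6, 12 and 15.5 RPKM in the early-phase livers. Its paralog *Nr1d2* did separate, at 21.2, 26.7, 16.9 and 11.7 RPKM against 2.57 to 9.61 RPKM. *Bhlhe40* and *Bhlhe41*, E-box repressors, overlapped at 28.2 to 39.4 against 9.69 to 33.8 RPKM and at 0.568 to 2.56 against 0.171 to 0.850 RPKM.

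*Tef*, the factor closest in function to Dbp, stood at 29.5, 36.4, 33.4 and 27.7 RPKM in M1, M2, M10 and M12 and at 3.27, 8.11, 7.69, 10.3 and 2.53 RPKM in M4, M5, M6, M7 and M8. The late-phase level of *Tef* was 4.93-fold the early-phase level (log2 2.30 ± 0.38 SE). *Hlf*, the third PAR bZIP factor, differed by 1.66-fold, from 7.77 to 12.8 RPKM against 4.82 to 7.57 RPKM. *Nfil3*, their repressive counterpart, ranged from 3.33 to 5.84 RPKM in the late phase and stood at 14.6, 9.47, 2.38, 9.64 and 15.4 RPKM in M4, M5, M6, M7 and M8, so that M6 alone made the phases overlap.

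Neither phase was uniform in these genes. Within the late phase, M12 had the lowest *Dbp*, *Per3*, *Nr1d1*, *Nr1d2* and *Ciart* and the highest *Per2* and *Cry1*. Within the early phase, M4 and M8 had the highest *Arntl*, *Npas2*, *Cry1* and *Nfil3* and the lowest *Dbp*, *Per2*, *Per3* and *Ciart*.

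**Figure D1:**
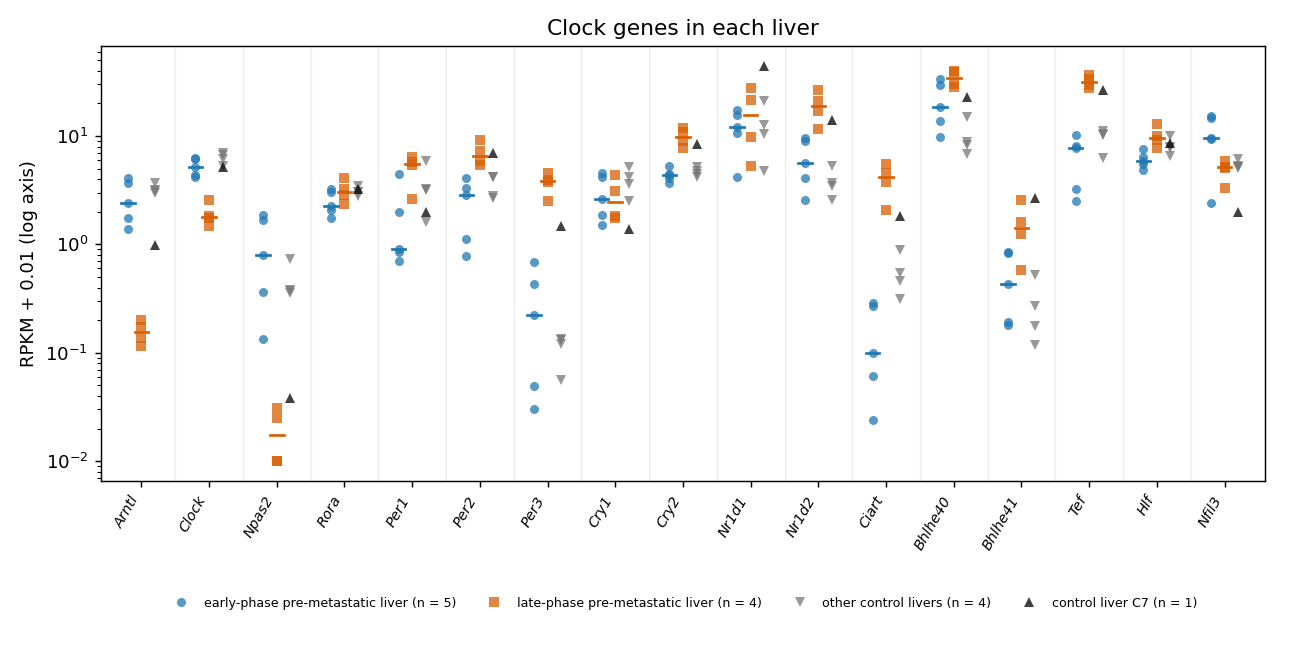
RPKM of 17 clock genes in each liver, with 0.01 added, on a log axis. Circles are the 5 early-phase and squares the 4 late-phase pre-metastatic livers with the median of each as a bar, downward triangles are the 4 other control livers and the upward triangle is control liver C7. *Arntl* and *Npas2* sit lower and *Per3*, *Ciart* and *Tef* higher in all late-phase livers, while *Cry1* and *Nr1d1* overlap.

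Beyond the clock genes, the question was which liver transcripts went with the split. Of 16699 genes tested, 288 (1.72%) differed at an adjusted p under 0.05 by edgeR's quasi-likelihood test, 170 (1.02%) higher and 118 (0.707%) lower in the late phase, and 2395 had an unadjusted p under 0.05. Of the 288, 10 were in the clock lists and 278 were not, 141 changed by 2-fold or more, and 255 did not overlap between the phases. Lack of overlap was found in 5.23% of all genes tested. The same livers gave the calls and this lack of overlap, so it adds no support to the calls. Because the split was read from the same libraries, these p-values measure association with the split by *Dbp* and not the effect of a treatment. A fit on *Dbp* as a continuous level called 136 of the 288 (47.2%). In bulk tissue, fewer cells of a type and less RNA per cell cannot be told apart. The count of 288 leaned on single livers: it was 77 without M10, 121 without M8, 164 without M2 and without M5, and 180 without M4.

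The largest rise outside the clock lists belonged to an unnamed transcript, ENSMUSG00000109904.1, annotated as a transcript to be experimentally verified at chr7:110119990-110121740 (mm10, plus strand). It stood at 1.83, 2.55, 3.03 and 2.56 RPKM in M1, M2, M10 and M12, from 171 to 310 counts, and at 0.0413, 0.0823, 0.0507, 0.0358 and 0 RPKM in M4, M5, M6, M7 and M8, from 0 to 8 counts. Its fitted log2 difference was 5.85 ± 0.47 SE (edgeR adjusted p = 0.000381), a value that rests on these few early-phase counts. The transcript ends just before the start of *Wee1* on the same strand, and *Wee1*, a kinase that holds cells before mitosis and a known clock output of liver, had the largest rise after *Usp2* among called genes with a mean of at least 1 RPKM. *Wee1* (chr7:110121982-110143299, mm10) stood at 6.62, 9.74, 8.53 and 5.96 RPKM in the late-phase and at 0.662, 0.701, 0.396, 1.03 and 0.618 RPKM in the early-phase livers. Every late-phase liver lay above every early-phase liver, an 11.2-fold difference (log2 3.49 ± 0.24 SE, edgeR adjusted p = 0.000307). Since the 2 genes are neighbours on 1 strand, reads that run past the end of one into the other could not be told apart.

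*Usp2* (chr9:44067021-44095627, mm10), a deubiquitinating enzyme that acts on clock proteins, stood at 3.90, 4.93, 6.38 and 4.94 RPKM in M1, M2, M10 and M12 and at 0.206, 0.377, 0.194, 0.466 and 0.156 RPKM in M4, M5, M6, M7 and M8. It was 18.0-fold higher in the late phase (log2 4.17 ± 0.32 SE, edgeR adjusted p = 0.000307). *Upp2*, a liver uridine phosphorylase, was at 15.8, 57.2, 49.8 and 16.5 RPKM against 4.32, 2.22, 4.14, 0.971 and 3.75 RPKM, an 11-fold rise (edgeR adjusted p = 0.0108). Its call was lost with *Dbp* as a continuous level (edgeR adjusted p = 0.0747) and with all 14 livers in the fit (edgeR adjusted p = 0.0716). Its late-phase values formed a high pair, M2 and M10, and a low pair, M1 and M12, both above the early phase.

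*Thrsp* (Spot 14), a nuclear protein that promotes fatty acid synthesis, was at 122, 400, 563 and 380 RPKM in the late phase and at 22.8, 63.1, 62.5, 67.4 and 50.9 RPKM in the early phase, 6.87-fold higher (edgeR adjusted p = 0.0129). *Cyp2a5*, the cytochrome P450 that oxidizes coumarin and nicotine, was at 165, 531, 535 and 217 RPKM against 55.4, 103, 18.8, 27.5 and 41.1 RPKM, 7.64-fold higher (edgeR adjusted p = 0.0131). Both genes were lowest, among the late-phase livers, in M1, and the call on *Cyp2a5* was lost without M10 (edgeR adjusted p = 0.0543). *Pcsk4*, a proprotein convertase, ranged from 4.09 to 9.58 against 0.610 to 2.13 RPKM, and *Nmrk1*, which makes nicotinamide mononucleotide from the riboside, from 4.24 to 10.3 against 1.03 to 1.77 RPKM. *4931408D14Rik* ranged from 7.35 to 13.4 against 0.909 to 2.89 RPKM and ENSMUSG00000108969.1 from 2.08 to 6.05 against 0.548 to 1.17 RPKM. The latter had 53 to 128 counts in late-phase and 11 to 26 counts in early-phase livers. These 4 rises were 6.15-, 5.16-, 5.22- and 4.75-fold, with edgeR adjusted p-values of 0.00588, 0.00656, 0.00245 and 0.0228, and the last was lost without any one of M1, M4, M5, M7, M8 or M10 (edgeR adjusted p = 0.0537 to 0.0714) and with all 14 livers (edgeR adjusted p = 0.153). The call on *Nmrk1* was lost with *Dbp* as a continuous level (edgeR adjusted p = 0.0988).

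Among called genes with a mean of at least 1 RPKM, the largest fall was that of *Cdkn1a* (chr17:29090979-29100722, mm10), which encodes the cell cycle inhibitor p21. It stood at 1.15, 0.617, 0.808 and 1.75 RPKM in M1, M2, M10 and M12 and at 9.98, 6.84, 9.82, 4.87 and 6.59 RPKM in M4, M5, M6, M7 and M8. The early-phase level was 6.84-fold the late-phase level (log2 −2.77 ± 0.38 SE, edgeR adjusted p = 0.00718). *Chka* (chr19:3851585-3894369, mm10), the choline kinase that opens phosphatidylcholine synthesis, was nearly constant within each phase, at 0.679, 0.742, 0.714 and 0.936 RPKM and at 3.93, 3.85, 4.39, 4.05 and 5.02 RPKM. Its early-phase level was 5.48-fold higher (log2 −2.45 ± 0.18 SE, edgeR adjusted p = 0.000307).

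*Slc1a4*, a transporter of small neutral amino acids, stood at 1.28, 0.737, 0.593 and 1.45 RPKM against 3.10, 5.76, 5.57, 5.33 and 14.8 RPKM. *Spon2*, an extracellular matrix protein, stood at 3.15, 2.08, 1.80 and 1.44 RPKM against 20.3, 19.3, 3.65, 11.4 and 10.2 RPKM. Both fell in the late phase, with early-phase levels 6.63- and 5.95-fold higher (edgeR adjusted p = 0.0218 and 0.0142), although the highest value of *Slc1a4* came from M8 alone. Their calls were lost without M2 (edgeR adjusted p = 0.0665 and 0.0511) and without M10 (edgeR adjusted p = 0.0871 and 0.0692), and that of *Slc1a4* also without M1 (edgeR adjusted p = 0.0518). Both were lost with all 14 livers (edgeR adjusted p = 0.0842 and 0.194), where the log2 difference of *Spon2* went from −2.57 to −1.45. *Spon2* was lost as well with *Dbp* as a continuous level (edgeR adjusted p = 0.0856) and with limma on log2(RPKM + 1) and log2(RPKM + 0.1) (limma adjusted p = 0.0713 and 0.0545).

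*Clpx*, the unfolding subunit of a mitochondrial protease, ranged from 20.2 to 28.7 RPKM in the late phase and from 47.5 to 138 RPKM in the early phase, 3.37-fold higher in the early phase (edgeR adjusted p = 0.0129, and 0.0564 without M10). *Lrfn3*, an adhesion protein known from synapses, ranged from 0.766 to 1.51 against 2.78 to 5.48 RPKM (edgeR adjusted p = 0.0106). The noncoding *Gm30959* overlaps another gene on the opposite strand and *LOC101056106* is annotated as a pseudogene, so reads of both may belong to other genes. They were 5.10- and 3.40-fold higher in the early phase (edgeR adjusted p = 0.0193 and 0.0474), the first call being lost without M2, M8 or M10 (edgeR adjusted p = 0.0575 to 0.0885) and the second without any one of M2, M4, M5, M6, M7, M8, M10 or M12 (edgeR adjusted p = 0.0617 to 0.164). With all 14 livers both were lost (edgeR adjusted p = 0.0716 and 0.203), and *LOC101056106* also with upper-quartile scaling, with *Dbp* as a continuous level (edgeR adjusted p = 0.0550 and 0.235) and with limma on log2(RPKM + 1) (limma adjusted p = 0.0542).

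**Figure D2:**
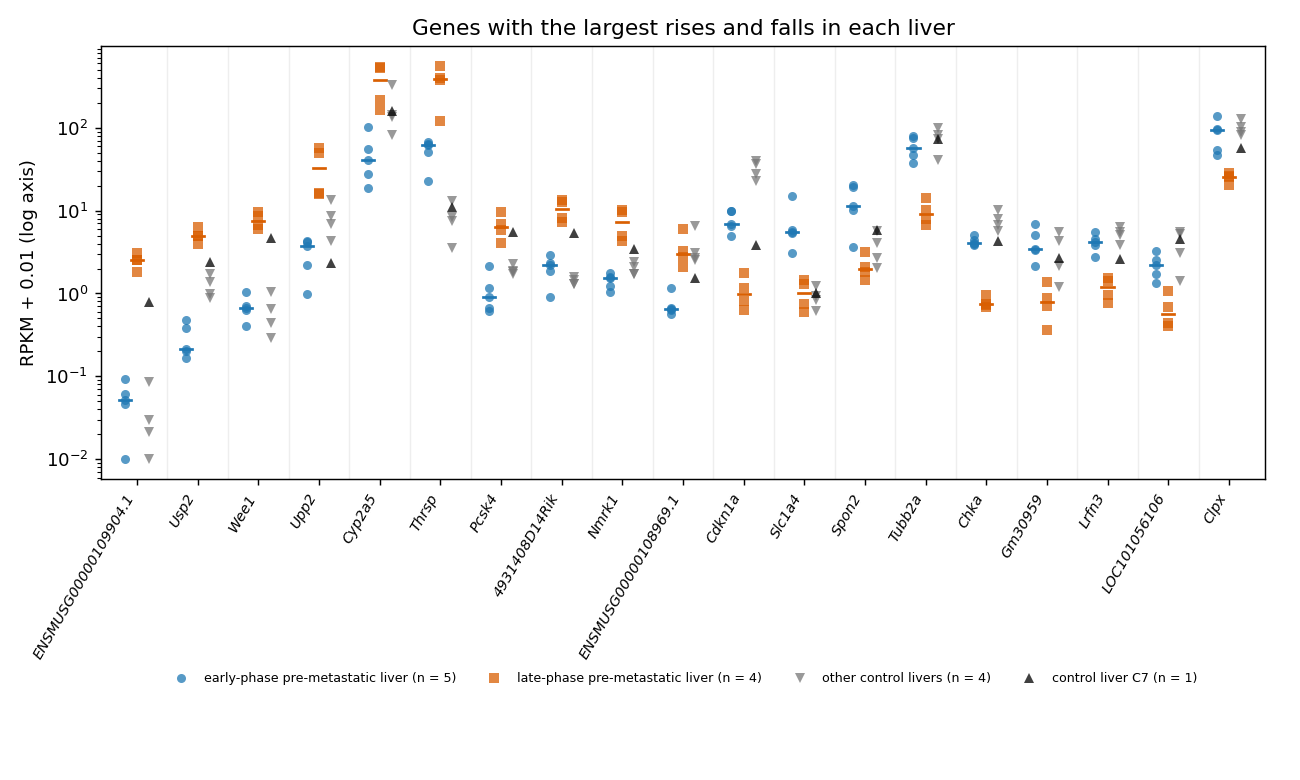
RPKM of the named genes with the largest rises and the largest falls in each liver, with 0.01 added, on a log axis. Symbols are as for the clock genes, with bars at the medians of the early-phase and late-phase livers. *Usp2* and *Wee1* were above every early-phase liver in each late-phase liver, and *Cdkn1a*, *Chka* and *Tubb2a* were below.

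*Tubb2a*, a beta-tubulin of microtubules, was among the largest falls, at 10.1, 6.74, 7.82 and 14.2 RPKM against 57.3, 75.7, 37.9, 47.1 and 80.4 RPKM (5.87-fold higher in the early phase, edgeR adjusted p = 0.00301). The tubulin genes were looked at together only after values were seen: of 14 alpha- and beta-tubulin genes tested, 5 were called lower, beside 0.707% of all genes tested, none was called higher, 9 were not called and 12 had a negative log2 difference. Those called besides *Tubb2a* were *Tubb2b*, *Tubb4b*, *Tuba4a* and *Tuba1b*, with log2 differences of −3.32, −1.28, −1.06 and −0.69. Their edgeR adjusted p-values were 0.0300, 0.0252, 0.0171 and 0.0281, and each was lost without M10 (edgeR adjusted p = 0.123, 0.103, 0.0800 and 0.104) and without M8 (edgeR adjusted p = 0.0811, 0.0674, 0.0552 and 0.0811). Without M1, M2 and M5 in turn, *Tubb2b*, *Tubb4b* and *Tuba1b* were lost as well (edgeR adjusted p = 0.0518 to 0.0833), as were *Tubb2b* and *Tuba1b* without M4 (edgeR adjusted p = 0.0647 and 0.0681). Each was also lost in 1 or more of the other fits, at adjusted p-values up to 0.0966, 0.0895, 0.0793 and 0.250 from edgeR. Tubulin paralogs have near-identical coding sequence and may share reads, and *Tubb2b* had only 1 to 15 counts in the late-phase livers, so the separate values of this family are uncertain. *Sphk2*, a sphingosine kinase, was called 2.07-fold higher in the late phase (edgeR adjusted p = 0.00962), and lost with limma on log2(RPKM + 1) and log2(RPKM + 0.1) (limma adjusted p = 0.0689 and 0.0764). Its gene overlaps the end of *Dbp* on the opposite strand, and without strand information in the counts the reads of the 2 genes cannot be told apart.

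Among the gene lists, the rhythmic liver outputs held the most calls. These genes are listed as outputs of the same clock as *Dbp*, which set the split, so their calls are not independent of the split. The list was also written with earlier results of these data known, and its counts are a description. Of 25 such genes tested, 8 rose and 5 fell in the late phase, beside 1.02% and 0.707% of all genes tested, and the list had a median log2 difference of 1.32 beside −0.0131 over all genes. *Gys2* (chr6:142422612-142473130, mm10), the liver glycogen synthase, stood at 88.8, 81.0, 130 and 96.7 RPKM in M1, M2, M10 and M12 and at 27.7, 29.9, 30.4, 27.3 and 22.8 RPKM in M4, M5, M6, M7 and M8. Its late-phase level was 3.61-fold higher (log2 1.85 ± 0.17 SE, edgeR adjusted p = 0.000963), with a narrow early-phase spread of 27.6 ± 3.0 RPKM (SD, n = 5). *Klf13*, a Krüppel-like transcription factor, was at 9.41, 12.6, 12.3 and 7.81 RPKM against 4.21, 5.60, 3.67, 4.07 and 3.64 RPKM, 2.50-fold higher (edgeR adjusted p = 0.00112).

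The other members that rose were *Usp2*, *Wee1* and *Upp2*, given above, and *Ppara*, *Nampt* and *Coq10b*. *Ppara*, *Nampt* and *Coq10b* were added outside the rule for named genes, and whether their calls held in other fits is not given. *Ppara*, the fasting-state lipid receptor, was at 24.6, 35.3, 29.9 and 28.3 RPKM against 11.1, 17.5, 6.54, 14.4 and 8.69 RPKM (edgeR adjusted p = 0.0137). *Nampt*, the rate-limiting enzyme of NAD salvage, ranged from 17.6 to 45.2 against 7.34 to 11.5 RPKM, and *Coq10b*, a coenzyme Q binding protein, from 14.2 to 26.1 against 3.59 to 7.10 RPKM (edgeR adjusted p = 0.00976 and 0.00316).

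The members that fell were *Tubb2a*, *Avpr1a*, *Slc45a3*, *Leap2* and *Dtx4*. Of these, *Avpr1a*, *Slc45a3*, *Leap2* and *Dtx4* were added outside the same rule, and whether their calls held in other fits is not given. *Avpr1a*, the hepatic vasopressin receptor, ranged from 7.88 to 13.5 RPKM in the late and from 21.4 to 31.4 RPKM in the early phase (edgeR adjusted p = 0.01). *Slc45a3*, a sugar transporter, ranged from 3.86 to 4.84 against 9.07 to 11.7 RPKM, and *Leap2*, a secreted peptide that blocks the ghrelin receptor, from 73.4 to 91.2 against 125 to 247 RPKM (edgeR adjusted p = 0.00152 and 0.0103). *Dtx4*, a ubiquitin ligase, ranged from 1.24 to 2.73 against 3.16 to 5.21 RPKM (edgeR adjusted p = 0.0371). *Por*, the electron donor of microsomal P450 enzymes, did not overlap but missed the threshold, at 80.5 to 216 against 27.4 to 71.9 RPKM (edgeR adjusted p = 0.0517).

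Genes of drug and xenobiotic metabolism followed with 3 of 23 tested members higher, beside 1.02% of all genes tested, and none lower. A positive log2 difference was found in 18 of the 23 (78.3%), beside 48.1% of all genes tested, with a list median of 0.35 beside −0.0131. *Nr1i3*, the nuclear receptor CAR that senses xenobiotics, stood at 49.9, 86.6, 84.7 and 62.7 RPKM in M1, M2, M10 and M12 and at 23.0, 38.4, 24.5, 28.6 and 19.7 RPKM in M4, M5, M6, M7 and M8. It rose 2.67-fold in the late phase (log2 1.42 ± 0.19 SE, edgeR adjusted p = 0.00660). The end of *Nr1i3* overlaps *Tomm40l*, also called higher (log2 1.53, edgeR adjusted p = 0.00656). Reads from the overlap could not be told apart. *Cyp2a5*, given above, and *Cyp2b9*, a P450 that CAR can induce, were the other 2 called members of the list. *Cyp2b9* was at 27.2, 10.1, 21.3 and 44.5 RPKM against 4.03, 7.38, 9.81, 5.91 and 3.38 RPKM (edgeR adjusted p = 0.0474), where M2 nearly touched M6. That call was lost without any one of M1, M4, M5, M7, M8, M10 or M12 (edgeR adjusted p = 0.0858 to 0.121), with *Dbp* as a continuous level (edgeR adjusted p = 0.115) and with both limma fits (limma adjusted p = 0.0858 and 0.0819). The abundant *Cyp2e1*, named after its values were seen, ranged from 4033 to 5755 RPKM against 2474 to 3725 RPKM and did not pass (edgeR adjusted p = 0.0559).

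In lipogenesis, 2 of 19 genes rose, *Thrsp* and *Dgat2*, and none fell, beside 1.02% and 0.707% of all genes tested. The median log2 difference of the list was −0.06. *Dgat2*, which completes triglyceride synthesis, was at 227, 295, 321 and 215 RPKM against 171, 208, 179, 157 and 177 RPKM, 1.49-fold higher (edgeR adjusted p = 0.0497), and lost its call without any one of M2, M4, M5, M7, M8, M10 or M12 (edgeR adjusted p = 0.0599 to 0.164). It was lost too with total counts only, without the filter on low counts and with *Dbp* as a continuous level (edgeR adjusted p = 0.127, 0.0617 and 0.0975) and with both limma fits (limma adjusted p = 0.110 and 0.178). *Elovl3*, a rhythmic elongase of very long fatty acids named after its values were seen, was 1.15, 10.2, 5.75 and 2.61 RPKM in the late phase and 159, 297, 1.61, 33.2 and 86.7 RPKM in the early phase. Of the early-phase livers, 4 stood far above the late phase and M6 within it, and the difference of log2 −4.48 ± 1.16 SE did not pass (edgeR adjusted p = 0.0896).

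Each of the following lists held 1 called gene, beside 1.72% of all genes tested, and a single call is not read as a response of its list. Of 12 bile acid genes, *Slc10a1* alone was called. This sodium-dependent bile acid importer stood at 240, 273, 307 and 256 RPKM against 191, 195, 180, 190 and 168 RPKM, a 1.46-fold rise (edgeR adjusted p = 0.0473) that was lost without any one of M1, M2, M4, M5, M7, M8, M10 or M12 (edgeR adjusted p = 0.0556 to 0.166). The 3 edgeR settings that ended the call on *Dgat2* ended this one too (edgeR adjusted p = 0.0656, 0.0716 and 0.122), as did limma on log2(RPKM + 0.1) (limma adjusted p = 0.0883). Of 20 cholesterol synthesis genes, *Insig2* alone was called. *Insig2*, which retains the SREBP activators in the endoplasmic reticulum, stood at 31.2, 38.9, 21.4 and 30.1 RPKM against 126, 128, 44.7, 70.2 and 92.2 RPKM, 2.95-fold higher in the early phase (edgeR adjusted p = 0.0170, and 0.0518 without M8 and 0.0684 without M10), and lost with both limma fits (limma adjusted p = 0.0719 and 0.0673). The synthesis enzymes of that list did not pass, and the list's median log2 difference was −0.23. Of 12 immediate early genes, *Myc*, a growth-promoting transcription factor, alone rose, from 1.27, 1.42, 2.10, 1.87 and 1.24 RPKM in the early phase to 4.15, 5.74, 12.2 and 6.19 RPKM in the late phase (4.42-fold, edgeR adjusted p = 0.0119, and 0.0897 with all 14 livers). Of 12 glucocorticoid targets, *Cdkn1a* alone was called, and it is also a gene of the p53 response.

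No gene was called in 8 further lists by edgeR, beside 1.72% of all genes tested. They were 12 heat shock and cold-inducible genes, 19 fasting and gluconeogenesis genes, 12 growth hormone dependent genes, 16 genes of the unfolded protein response, 15 ribosome biogenesis genes, 17 cell cycle genes, 20 acute-phase genes and 31 tested members of the gene set by which the study scored myeloid-derived suppressor cells. Members with an unadjusted p under 0.05 numbered 0, 6, 1, 2, 2, 2, 1 and 1 in this order, beside 14.3% of all genes tested. The share was 31.6% in the fasting and gluconeogenesis list, and 0 to 13.3% in the other 7. In that list *Cpt1a*, which admits fatty acids to mitochondria, and *Angptl4*, a secreted lipase inhibitor, both named after their values were seen, were higher without overlap, at 94.0 to 135 against 48.2 to 87.2 RPKM and at 46.5 to 59.0 against 6.20 to 37.7 RPKM, and missed the threshold (edgeR adjusted p = 0.0553 and 0.106). The most abundant member of each of the other 7 lists overlapped between the phases in all but *Npm1*, a nucleolar chaperone at 66.9 to 77.3 against 54.4 to 66.6 RPKM (edgeR adjusted p = 0.449).

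*Hspa8*, the constitutive heat shock chaperone, ranged from 164 to 443 RPKM in the late phase and from 170 to 526 RPKM in the early phase. *Serpina3k*, a growth hormone dependent serpin, ranged from 3209 to 6168 against 3882 to 6199 RPKM. *Hspa5*, the endoplasmic reticulum chaperone BiP, ranged from 261 to 410 against 281 to 1162 RPKM, its highest value being that of M7. *Pcna*, the replication clamp, ranged from 19.0 to 22.9 against 14.5 to 21.1 RPKM. *Hpx*, the heme-binding acute-phase protein hemopexin, ranged from 5395 to 13356 against 7712 to 14230 RPKM, and *Arg1*, the urea cycle arginase that suppressor cells also use, from 595 to 694 against 340 to 1189 RPKM. The log2 differences of these 6 genes lay between −0.65 and 0.19 (edgeR adjusted p = 0.531 to 0.991).

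**Figure D3:**
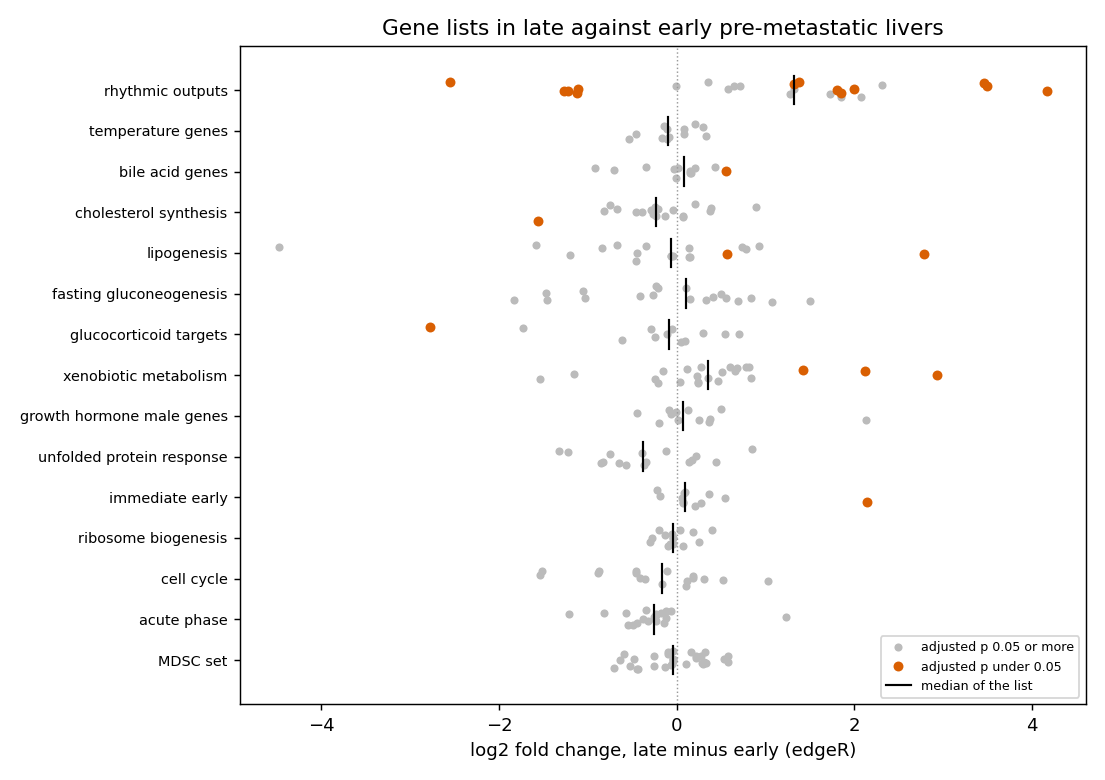
log2 difference, late minus early, of each tested member of 15 gene lists from edgeR. Orange points have an adjusted p under 0.05, grey points do not, and the black tick is the list median. The rhythmic outputs carry 13 orange points, the xenobiotic list 3 and lipogenesis 2, while 8 lists carry none.

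Inflammatory genes and cell type markers gave no call. Of 20 acute-phase genes, 19 had a negative log2 difference, beside 8660 of all 16699 genes tested, and the list median was −0.25. None was called and the ranges overlapped in all 20, for example *Saa1*, serum amyloid A, at 1544 to 5584 against 3164 to 10619 RPKM (edgeR adjusted p = 0.478). None of the tested markers of 11 cell types was called, beside 1.72% of all genes tested. Only 2 of 9 pancreas and gut markers passed the count filter. So did 10 of 11 neutrophil, 5 of 6 granulocyte precursor and 8 of 9 T and NK cell markers, and all markers of the other lists. The log2 difference was positive in all 8 Kupffer cell, 7 endothelial and 6 B cell markers and negative in all 6 erythroid markers. The other marker lists held both signs. Summed neutrophil markers ran from 7.62 to 143 RPKM in late-phase and from 20.2 to 68.3 RPKM in early-phase livers, and both the lowest and the highest liver, M2 and M1, were late-phase. Summed granulocyte precursor markers ran from 27.1 to 96.0 against 49.7 to 112 RPKM and Kupffer cell markers from 150 to 388 against 130 to 306 RPKM.

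Sequences bound by clock factors were looked up in the 250 bases before the RefSeq start of each gene (GRCm38.p6), since the activators bind E-boxes and the Dbp family D-boxes. Searched on both strands were the E-box CACGTG, the D-box as TTATGTAA or TTACGTAA, and the ROR element of the Nr1d and Ror receptors as TAGGTCA or AAGGTCA. E-box and D-box matches cannot share bases, while an E-box can share its first 2 bases with the end of a ROR element. A D-box was present in 8 of 116 genes (6.90%) called higher outside the clock lists, in 1 of 85 (1.18%) called lower, in 0.931% of all genes tested and in 1.10% of the 27025 genes with a promoter in the table. An E-box was present in 23 of 116 (19.8%) and in 13 of 85 (15.3%), against 9.49% of genes tested and 6.86% of all promoters. A ROR element was present in 6.03% and 10.6%, against 6.19% and 7.06%. A match describes these letters in this window and does not show that a factor binds there. The called genes came from a split on *Dbp*, whose own family binds D-boxes. These shares are therefore a description and add no separate support to the calls.

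The D-box stretches are shown for *Per3* and for 4 of the 8 called genes outside the clock lists, with the D-box in capitals and up to 26 bases on either side, from the 5′ to the 3′ end of the gene's own strand. *Per3* (chr4:151044790-151044896, minus strand) held 2 of them. *Map2k6*, a kinase of the p38 pathway (chr11:110478265-110478317, plus strand), *Acsm3*, a medium-chain acyl-CoA synthetase (chr7:119760834-119760893, plus strand), *Slc16a12*, a creatine transporter (chr19:34747371-34747430, minus strand), and *Homer2*, a scaffold protein (chr7:81707002-81707061, minus strand), held 1 each.
Per3: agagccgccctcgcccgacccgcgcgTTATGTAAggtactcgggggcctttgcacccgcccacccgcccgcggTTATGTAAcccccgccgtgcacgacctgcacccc
Map2k6: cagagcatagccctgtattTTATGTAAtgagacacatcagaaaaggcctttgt
Acsm3: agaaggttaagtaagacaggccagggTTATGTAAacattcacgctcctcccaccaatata
Slc16a12: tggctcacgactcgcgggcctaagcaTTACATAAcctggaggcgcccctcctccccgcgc
Homer2: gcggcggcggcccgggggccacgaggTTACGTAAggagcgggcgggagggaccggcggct
The site of *Slc16a12* is TTATGTAA read on the opposite strand. The log2 differences of the last 4 genes, late minus early, were 2.68, 0.88, 1.06 and 0.97 (edgeR adjusted p = 0.0286, 0.0196, 0.00245 and 0.0287). *Homer2* overlapped between the phases, while *Map2k6*, *Acsm3* and *Slc16a12* did not. The other D-box genes called higher were *Coq10b*, *Ak4*, *Gm41485* and *Gm30262*.

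The E-box stretches are shown in the same way, with the E-box in capitals, for clock genes that were higher in every late-phase liver and for the called genes with the largest rises whose stretch holds no annotated exon. *Ciart* (chr3:95882241-95882370, minus strand) held 3 E-boxes and *Tef* (chr15:81811250-81811307, plus strand) is shown at its second start. *Cpsf4l* (chr11:113709638-113709695, minus strand), *Lpin2*, a phosphatidate phosphatase of triglyceride synthesis (chr17:71183497-71183531, plus strand), *Crebrf*, a regulator of the unfolded protein response (chr17:26715499-26715556, plus strand), and *Nr1i3* (chr1:171213720-171213757, plus strand) follow.
Ciart: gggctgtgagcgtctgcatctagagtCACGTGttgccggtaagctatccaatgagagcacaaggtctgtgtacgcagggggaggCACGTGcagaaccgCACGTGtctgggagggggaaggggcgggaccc
Tef: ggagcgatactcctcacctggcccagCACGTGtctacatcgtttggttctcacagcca
Cpsf4l: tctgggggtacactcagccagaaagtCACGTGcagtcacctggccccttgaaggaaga
Lpin2: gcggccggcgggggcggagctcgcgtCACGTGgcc
Crebrf: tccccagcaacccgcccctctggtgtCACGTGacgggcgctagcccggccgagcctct
Nr1i3: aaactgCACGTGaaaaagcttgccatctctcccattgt
The log2 differences of *Cpsf4l*, *Lpin2*, *Crebrf* and *Nr1i3* were 2.09, 1.91, 1.70 and 1.42 (edgeR adjusted p = 0.0397, 0.00227, 0.0133 and 0.00660), and none of the 4 overlapped between the phases. The window before the listed start of *Usp2* held none of the letters searched.

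The control livers, which took no part in the split, held 1 liver on the late side of the same threshold. Control liver C7 had 49.1 RPKM of *Dbp* and the other 4, C1, C4, C5 and C6, had 0.945 to 3.09 RPKM. With 1 liver against 4 there was no test, and the values are a description. Of the 163 non-clock genes called higher in late-phase pre-metastatic livers, C7 lay above all 4 other control livers in 97 (59.5%), against 30.1% of the 16681 genes tested. Of the 115 called lower, C7 lay below all 4 others in 54 (47.0%), against 15.1%. The opposite order was found in 10 (6.13%) of those called higher, where C7 lay below all 4 others, and in 9 (7.83%) of those called lower, where it lay above them.

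By gene, C7 stood at 4.60 RPKM of *Wee1* against 0.279 to 1.03 RPKM in the other control livers, at 2.39 against 0.863 to 1.69 RPKM of *Usp2*, and at 0.769 against 0 to 0.0761 RPKM of ENSMUSG00000109904.1. *Cdkn1a* was at 3.80 RPKM in C7 and at 22.8 to 39.3 RPKM in the others. *Nr1i3* was at 86.6 against 54.0 to 59.9 RPKM, and *Cyp2b9* at 93.4 against 0.810 to 3.92 RPKM. *Tubb2a*, at 72.6 RPKM in C7, lay within the other control livers at 41.3 to 98.9 RPKM, and *Thrsp*, at 11.2 RPKM, within 3.54 to 13.0 RPKM. *Upp2* and *Klf13*, called higher in the late phase, were lower in C7 than in any other control liver, at 2.32 against 4.28 to 13.5 RPKM and at 4.43 against 4.95 to 5.81 RPKM. Among the clock genes, *Arntl* was at 0.980 RPKM in C7 against 2.98 to 3.64 RPKM and *Per3* at 1.48 against 0.0465 to 0.123 RPKM. *Clock*, at 5.18 RPKM, lay just below the others at 5.23 to 6.89 RPKM. *Nr1d1* in C7, 44.6 RPKM, was above the other control livers (4.70 to 21.2 RPKM) and the late-phase livers (5.28 to 27.5 RPKM). *Per1*, at 1.97 RPKM, lay within the other control livers (1.59 to 5.88 RPKM) and below the late-phase livers (2.60 to 6.38 RPKM).

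The primary tumors of the same mice were then compared by the phase of the liver, a set of samples that the rule did not use. Of 18330 genes tested in the 4 tumors of late-liver and the 5 tumors of early-liver mice, none (0%) was called by edgeR, 1270 (6.93%) had an unadjusted p under 0.05, and DESeq2 called 182. The count was 79 without the tumor of M1. *Dbp* itself stood at 22.5, 31.7, 26.9 and 64.1 RPKM in the tumors of M1, M2, M10 and M12 and at 6.73, 4.93, 19.1, 9.18 and 7.89 RPKM in those of M4, M5, M6, M7 and M8. The groups did not overlap, although the log2 difference of 1.94 ± 0.40 SE missed the threshold after adjustment (edgeR adjusted p = 0.146).

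Of the other clock genes, 16 were measured in tumors, 14 had the sign seen in the livers and 10 had an unadjusted p under 0.05, but none was called. *Tef* stood at 14.9, 16.1, 14.8 and 24.7 RPKM against 5.74, 5.42, 9.78, 7.86 and 6.23 RPKM, without overlap (log2 1.35 ± 0.20 SE, edgeR adjusted p = 0.127). *Arntl* stood at 4.54, 3.52, 3.07 and 2.11 RPKM in tumors of M1, M2, M10 and M12 and at 5.64, 6.94, 6.17, 6.25 and 8.36 RPKM in the others (log2 −0.99 ± 0.21 SE, edgeR adjusted p = 0.158). The tumor values of *Arntl* did not overlap either, beside 2.82% of all tumor genes without overlap in either direction. *Per3*, *Nr1d1* and *Nr1d2* were likewise higher in each tumor of late-liver mice, at 2.15 to 3.46 against 0.861 to 1.77 RPKM, 25.8 to 36.9 against 5.97 to 24.9 RPKM and 17.8 to 21.2 against 6.66 to 17.0 RPKM (edgeR adjusted p = 0.189, 0.410 and 0.211). The early-side tumor closest to the late side in *Dbp*, *Tef*, *Nr1d1* and *Nr1d2* was that of M6. *Npas2* was at or near 0 RPKM in the tumors and was not tested, and *Bhlhe40* and *Bhlhe41* overlapped fully.

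**Figure D4:**
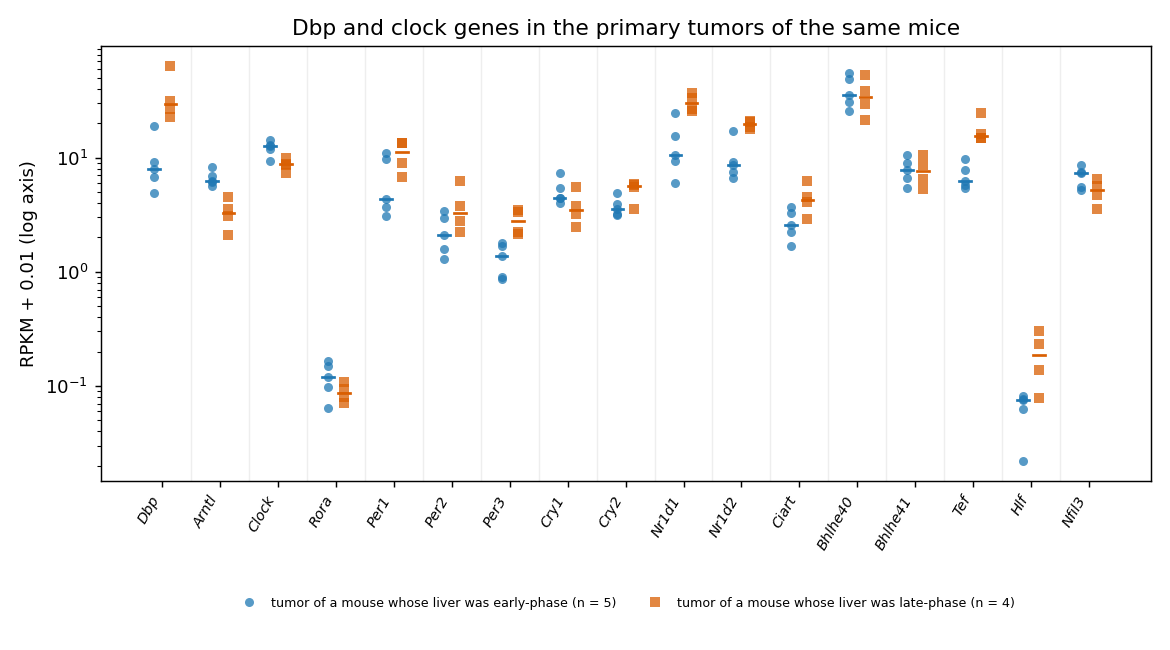
RPKM of *Dbp* and the 16 clock genes tested in primary tumors, with 0.01 added, on a log axis. Squares are the 4 tumors of mice with late-phase livers and circles the 5 tumors of mice with early-phase livers, with medians as bars. *Dbp*, *Tef*, *Per3*, *Nr1d1* and *Nr1d2* lie higher and *Arntl* lower in all tumors of late-liver mice.

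Of 238 called liver genes outside the clock lists that were measured in tumors, 22 (9.24%) had an unadjusted p under 0.05, beside 6.93% of all tumor genes, and 16 of the 22 had the same sign as in liver. *Wee1* ranged from 9.12 to 14.6 RPKM in late-side against 8.46 to 13.1 RPKM in early-side tumors, *Usp2* from 1.43 to 1.71 against 1.07 to 2.08 RPKM, *Cdkn1a* from 56.6 to 71.8 against 49.0 to 97.9 RPKM and *Chka* from 2.56 to 3.32 against 2.26 to 3.08 RPKM. The log2 differences of these 4 genes in tumors were 0.04, 0.18, −0.29 and 0.15 (edgeR adjusted p = 0.814 to 0.984). Summed hepatocyte markers moved with the tumor groups, at 12.4 to 255 RPKM in late-side and 5.76 to 9.18 RPKM in early-side tumors, and their part in the tumor differences was not tested.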

How the data were processed

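RNA was purified with oligo(dT) beads from 14 livers and 9 primary tumors. The submitters' processing notes name HISAT, HISAT2, HTSeq 0.6.0 and the build mm10, without stating their settings. The authors deposited 1 table of 48897 genes that holds raw read counts per gene and RPKM values (counts divided by gene length and library size). Recomputing RPKM from the counts and lengths gave a largest relative error of 1.75e-06. Strand use in counting was not given in the sources used here. Of the symbols, 2 had become calendar dates shared by more than 1 row, and such rows were summed.

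Livers were split at a *Dbp* level of 20 RPKM. Genes with 10 or more counts in 4 or more of the 9 livers were tested on the deposited counts, *Dbp* left out, with edgeR 4.0.16 (R 4.3.3, TMM, quasi-likelihood test, two-sided, Benjamini-Hochberg adjustment over all genes tested, threshold 0.05). Tumors were tested in the same way, with the count filter applied to the 9 tumors and *Dbp* left in. DESeq2 1.42.0 and limma 3.58.1 on log2(RPKM + 1) or log2(RPKM + 0.1) served as alternatives, beside other scalings, no filter, *Dbp* as a continuous level, all 14 livers, and each library left out. The fit was tested on simulated data. SE is the log2 difference divided by the square root of the F statistic. Levels are given in RPKM and differences from the fit.

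The groups, the gene lists and the tests were chosen with earlier results of these data known. Named genes were the clock lists and the 10 largest rises and falls among non-overlapping called genes with a mean of at least 1 RPKM. Named too were up to 4 called members of each list with the smallest p, and the most abundant member of a list without a call. Exceptions marked in the text, the other rhythmic outputs, *Por*, *Sphk2*, *Saa1* and further genes of the motif search lie outside this rule. A few genes that this rule names are not reported here. Gene positions and overlaps came from GENCODE vM21 and promoters from RefSeq (GRCm38.p6), where 116 of 163 and 85 of 115 called genes outside the clock lists had a match. Each liver came from its own mouse. Deep libraries left counting error small beside the spread between mice, and 4 against 5 livers limited the precision.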

Additional observations from a re-analysis of the deposited data

Results flagged for a closer look

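In 124 groups of 4 or 5 livers, each the level of a named gene or a summed marker list in 1 phase, 4 had a liver whose distance from its nearest neighbour on the log2(RPKM + 1) scale took up most of the range of the group (above Dixon's 95% critical value). Chance gives about 1 in 20 such groups. *Nfil3* in the early-phase liver of M6 was 2.38 RPKM, where the other 4 held 9.47 to 15.4 RPKM. *Thrsp* in the early-phase liver of M4 was 22.8 RPKM, where the others held 50.9 to 67.4 RPKM. ENSMUSG00000108969.1 in the early-phase liver of M6 was 1.17 RPKM, where the others held 0.548 to 0.665 RPKM. These values rest on only 11 to 26 counts a liver. Summed erythroid markers in the early-phase liver of M4 were 1197 RPKM, where the others held 621 to 737 RPKM.

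Of 44 genes compared between liver and tumor, *Slc1a4* was the 1 flagged for opposite directions in the 2 tissues of the same mice. It was lower without overlap in late-phase livers (log2 difference −2.73), and higher without overlap in the tumors of the same mice, at 7.70 to 10.9 RPKM against 5.03 to 7.66 RPKM (log2 difference 0.49, edgeR adjusted p = 0.536). The tumor ranges nearly touched, 2.82% of all tumor genes had no overlap in either direction, and the liver call was lost in 4 of 17 alternatives. The difference between the tissues was not tested.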

How the results depend on the processing

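The 288 liver calls became 303 with upper-quartile scaling, 173 with total counts only, 315 without the filter on low counts, 932 with DESeq2, 158 with limma on log2(RPKM + 1), 124 with limma on log2(RPKM + 0.1), 196 with *Dbp* as a continuous level and 370 with all 14 livers. Leaving out each liver in turn gave 77 to 378. DESeq2 called all 288 again, limma on log2(RPKM + 0.1) 109 of them and the fit without M10 76. Between 54.3 and 66.7% of calls were higher in the late phase, beside 59.0%. Of 32 named genes called, 13 kept the call in all 17 alternatives, and none reversed. Among uncalled genes, *Serpina3k* reversed to 0.0017 without the filter and to 0.0039 with DESeq2 and ranged from −0.12 to 0.15 (log2) over the fits without 1 liver, *Hspa8* ranged from −0.55 to 0.26, and *Arg1* reversed to −0.028 with all 14 livers. The 0 tumor calls became 182 with DESeq2, 38 without the filter, and 0 to 79 with each tumor left out, the 79 being without M1. The cause of these changes was not tested. No paired analysis was possible because late-phase and early-phase livers came from different mice, so equal numbers do not join them. Collection times are not known here, 9 livers carry the split, and reads of overlapping genes or paralogs could not be assigned to strand or copy. Late-phase values of *Npas2* rest on at most 6 counts a liver.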
